A study of Mus musculus with 11 samples.

Results

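4C is the pre-malignant line of a mouse model of melanoma progression, and it is described here by its 3 libraries (replicates 1, 2 and 3 by their labels) of 11 in all, against the 8 libraries of the 3 other lines. Melan-a, nonmalignant melanocytes of C57Bl/6 background that became immortal spontaneously, is the parent of the model and was represented by replicates 2 and 3, while replicate 1 was not analysed here. Repeated rounds of blocked attachment and re-adhesion of melan-a gave the lines 4C, 4C11− and 4C11+, and each was represented by replicates 1, 2 and 3. Melan-a and 4C do not form tumors, 4C11− and 4C11+ do, and among them 4C11+ is the metastatic line; 4C and 4C11− have a mesenchymal-like form, melan-a and 4C11+ an epithelial one. All lines grew in RPMI with serum, and only melan-a received the phorbol ester PMA, at 200 nM, so that an effect of PMA and a property of melan-a cannot be told apart. Each line stands for 1 derivation, so the spread between its libraries is not that of independent derivations.

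Melanocytes arise from the neural crest, and their identity rests on the transcription factors Mitf and Sox10, which drive the enzymes of melanin synthesis and the proteins of the melanosome. Anchorage to a matrix through integrins normally keeps such cells alive, and cells that survive without it are enriched by repeated detachment. In melanoma, cells can move between a pigmented, epithelial-like state and a dedifferentiated, mesenchymal-like state.

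Total RNA was sequenced after removal of ribosomal RNA, and the deposited values are log2 CPM (counts scaled to library size) of 14272 genes on a common distribution across the libraries. Low values fall into steps that are read here as single reads. By the height of the step for 40 reads, depths would be 6.51, 7.08 and 5.67 M reads in 4C, 3.50 and 5.82 M in melan-a, 4.58, 7.42 and 6.69 M in 4C11−, and 4.19, 4.07 and 5.47 M in 4C11+. On a common distribution a step height is not set by depth alone, so these are no measured depths. The step for 0 reads was at −3.44 in 4C replicate 1 and 4C11− replicate 2, but that for 1 read at −2.44 and −3.15. A group with no library above 3 reads is called at the floor, and a fold against it is a lower bound computed at 3 reads per library. At the floor in all their libraries were 342 genes in 4C, 683 in melan-a, 204 in 4C11− and 1021 in 4C11+. Across genes, which are not independent replicates, the Pearson correlation was 0.948 to 0.974 between the 4C libraries, 0.865 to 0.943 between 4C and 4C11−, 0.764 to 0.811 between 4C and melan-a, and 0.711 to 0.762 between 4C and 4C11+. Within 4C the median SD of a gene was 0.34 on the log2 scale, beside 0.43 in melan-a, 0.44 in 4C11− and 0.31 in 4C11+. Replicate 1 of 4C11− stood apart from replicates 2 and 3 of its line (r of 0.924 and 0.888, against 0.971 between those 2), and the melan-a pair correlated at 0.907.

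The transcripts by which melanocytes are recognized were close to absent from 4C, where 2 of 7 markers were at the floor and the others were read at low values. All 7 melanocyte markers were measured and all 7 were lower in 4C than in melan-a in limma, with *Tyr*, the rate-limiting enzyme of melanin synthesis, and *Sox10* at the floor. *Tyr* was low in melan-a too, at −0.25 (3 reads) and 1.29 log2 CPM, against 8.39 to 8.70 in 4C11+. The summed CPM of the 7 markers was 6.50, 3.52 and 5.70 in the 4C libraries, 1744 and 8960 in melan-a, 11.5, 5.67 and 3.01 in 4C11−, and 12884, 10598 and 11908 in 4C11+. Pmel, a structural protein of the melanosome, was the most abundant of them in 4C, at 0.60, −0.42 and 1.05 log2 CPM. *Mitf* was at 0.87, −0.70 and 0.44 log2 CPM in 4C, 7.73 and 7.97 in melan-a, −0.70, 1.14 and −0.70 in 4C11−, and 6.38, 6.23 and 8.76 in 4C11+. So the data go against the name melanocyte for 4C, and the line is called here by its label alone. 4C overlapped with 4C11− in all but *Sox10*, which was lower in each 4C library than in each 4C11− library without passing the test against that line (adjusted p = 0.0592 in limma). The nearest values were −2.44 in 4C replicate 3 (1 read) and −2.01 in 4C11− replicate 3 (3 reads), where no size of a difference can be read. In bulk RNA, fewer cells of a type and less RNA per cell cannot be told apart.

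Markers of other cell types were read in the same way, and a marker not measured is one absent from the deposited genes. By the authors' filter, such a gene reached 1 CPM in fewer than 4 libraries. Of 7 fibroblast markers, *Col1a2*, *Dcn*, *Lum* and *Thy1* were not measured, so a fibroblast identity of 4C is not shown. The 3 measured were all higher in 4C than the other lines on average, led by *Col1a1*, a chain of type I collagen, at 10.81, 10.91 and 10.91 log2 CPM in 4C, 1.35 and 1.48 in melan-a, 10.74, 10.42 and 10.55 in 4C11−, and 2.16, 1.78 and 1.32 in 4C11+. Each 4C library was above each melan-a and 4C11+ library by over 8 log2 units, while 4C differed from 4C11− by 0.31 (SE 0.23) with an adjusted p of 0.624 in limma. The summed CPM of the 3 fibroblast markers was 2240, 2513 and 2577 in 4C and 2181, 1934 and 1972 in 4C11−, against 205 and 19.6 in melan-a and 41.7, 44.4 and 25.4 in 4C11+. The melan-a libraries were unlike here, with the receptor *Pdgfrb* at 6.90 in replicate 2 and 0.89 in replicate 3. Of 6 markers each, 1 keratinocyte marker (*Krt10*), 2 leukocyte markers (*Cd68*, *Csf1r*) and 2 endothelial markers (*Cdh5*, *Vwf*) were measured, and limma called 0 of these 5 against the others on average (0 at an unadjusted p under 0.05). Their summed CPM in the 4C libraries was 1.32, 1.06 and 1.18 for keratinocytes, 4.75, 4.88 and 7.20 for leukocytes, and 21.2, 3.38 and 10.3 for endothelium. Melan-a replicate 2 stood above melan-a replicate 3 in the leukocyte sum (82.9 and 7.22) and the endothelial sum (30.2 and 5.25). *Cdh5*, the cadherin of endothelial junctions, was at 4.01, −0.70 and 0.44 in 4C beside 6.73, 7.43 and 6.54 in 4C11−. Against single lines, *Cdh5* was lower than in 4C11− (adjusted p = 0.0135 in limma). It was higher than in melan-a and 4C11+ (adjusted p = 0.0476 and 0.012 in limma), both at the floor. The 4C mean was led by replicate 1, while replicate 2 lay below the value of 3 reads in both these lines. *Krt10* was higher than in 4C11+ (adjusted p = 0.00114 in limma). Of 7 markers of Schwann cells and the neural crest, 3 were measured and 2 were lower in 4C, while *Ngfr* was not called (adjusted p = 0.196 in limma). *Erbb3*, a receptor of neuregulin signaling, was lower against the mean and not against 4C11− (adjusted p = 0.0913 in limma), at −0.70, 0.08 and 1.18 against 8.05 and 7.18 in melan-a, 3.41, 1.44 and 2.44 in 4C11−, and 7.06, 6.83 and 8.17 in 4C11+. The part of other cells in the results that follow was not tested.

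**Figure D1:**
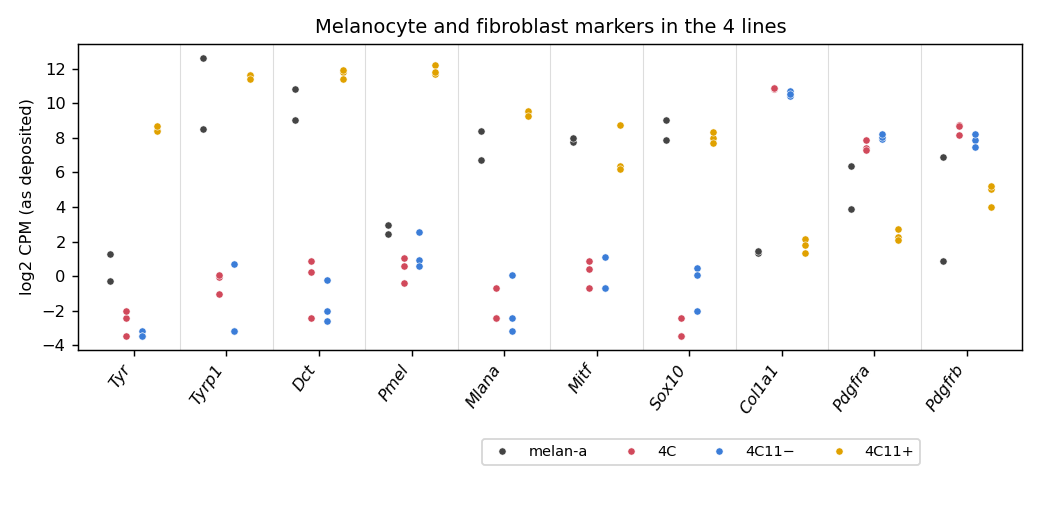
Deposited log2 CPM of the 7 melanocyte and 3 measured fibroblast markers, with 1 point per library and the 4 lines side by side for each gene. For the melanocyte markers the 4C points lie below melan-a and 4C11+ and with those of 4C11−, except for *Sox10*, where they lie below 4C11− too. The nearest *Sox10* points of these 2 lines stand for 1 and 3 reads. For *Col1a1* they lie near 10.81 to 10.91.

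Against the mean of the 3 other lines, each with equal weight, 4C was higher by at least 6.26 log2 units at *Nxf3*, a nuclear RNA export factor, and lower by at least 6.69 at *Capn6*, a calpain family protein, with groups at the floor set to their bound. On this scale *Capn6* was not the extreme. *Fabp5* was lower by at least 7.26, and *Lama4* and *Hmcn1*, with few reads in 4C, by more. In all, limma called 2417 of 14272 genes (16.9%) at an adjusted p under 0.05, 1131 higher (7.92%) and 1286 lower (9.01%) in 4C. The median difference over all genes was −0.03, and −0.05 with groups at the floor set to their bound. Most of these genes were not called against every line. Of them, 83 also differed from each of the 3 lines in the same direction, 1381 differed from 2 lines, 913 from 1 line and 40 from none. Those called against melan-a and 4C11+ and not against 4C11− numbered 1302, and a missed threshold does not show that 4C and 4C11− were alike. The 3 comparisons share the 4C libraries, and singly they called 2167 genes against melan-a (15.2%), 4528 against 4C11+ (31.7%) and 238 against 4C11− (1.67%), of which 58 were higher and 180 lower in 4C. The count of 2417 fell to 1323 without 4C replicate 2 (691 higher, 632 lower) and to 1464 without 4C replicate 3 (705 higher, 759 lower), and it was 2675 without 4C11− replicate 1.

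More of the genes apart from each other line were lower than higher in 4C, a balance that cannot be read as a property of 4C. By the authors' filter a gene had to reach 1 CPM in 4 or more libraries. Genes read only in the 3 4C libraries were thus removed, while genes read in the 8 others and absent from 4C were kept. The rule for a gene apart from each other line, with 3 differences of the same sign and each at an adjusted p under 0.05 in limma, held for 83 genes (0.582%), 20 higher (0.14%) and 63 lower (0.441%) in 4C. In 33 of the 63 lower genes all 4C libraries were at or under 3 reads, and 13 of the 20 higher genes were at the floor in at least 1 other line. That 0 of the 20 were so in all 3 other lines was largely set beforehand by this filter and is no contrast to the lower genes. The difference from the nearest other line had a median of 2.88 log2 units in the higher genes (7.34-fold) and 3.33 in the lower genes (10-fold), or 2.40 (5.27-fold) and 2.54 (5.81-fold) with groups at the floor set to their bound. The nearest line was 4C11− for 55 of the 83 genes, 4C11+ for 16 and melan-a for 12. By the deposited values, all 83 had 4C libraries outside the range of the other 8 libraries, a pattern met by 849 of all genes (5.95%), 337 higher and 512 lower, and 78 of the 83 encode proteins. At the lowest values this can rest on the value given to 0 reads, which differs between libraries: for *Foxp2*, named after its values were seen, each 4C library and 4C11+ replicate 1 had 0 reads. The number of genes apart fell from 83 to 38 without 4C replicate 2, 41 without 4C replicate 3, 42 without 4C11− replicate 2 and 54 without 4C11+ replicate 1. The count of lower genes was 33, 36 and 38 without the first 3 of these libraries, and that of higher genes was 5, 5, 4 and 9 without the 4, 12 without 4C11+ replicate 2, 10 without 4C11− replicate 3, 36 without melan-a replicate 2 and 32 without melan-a replicate 3. Without 4C11− replicate 1 the number was 77, of which 61 were among the 83.

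**Figure D2:**
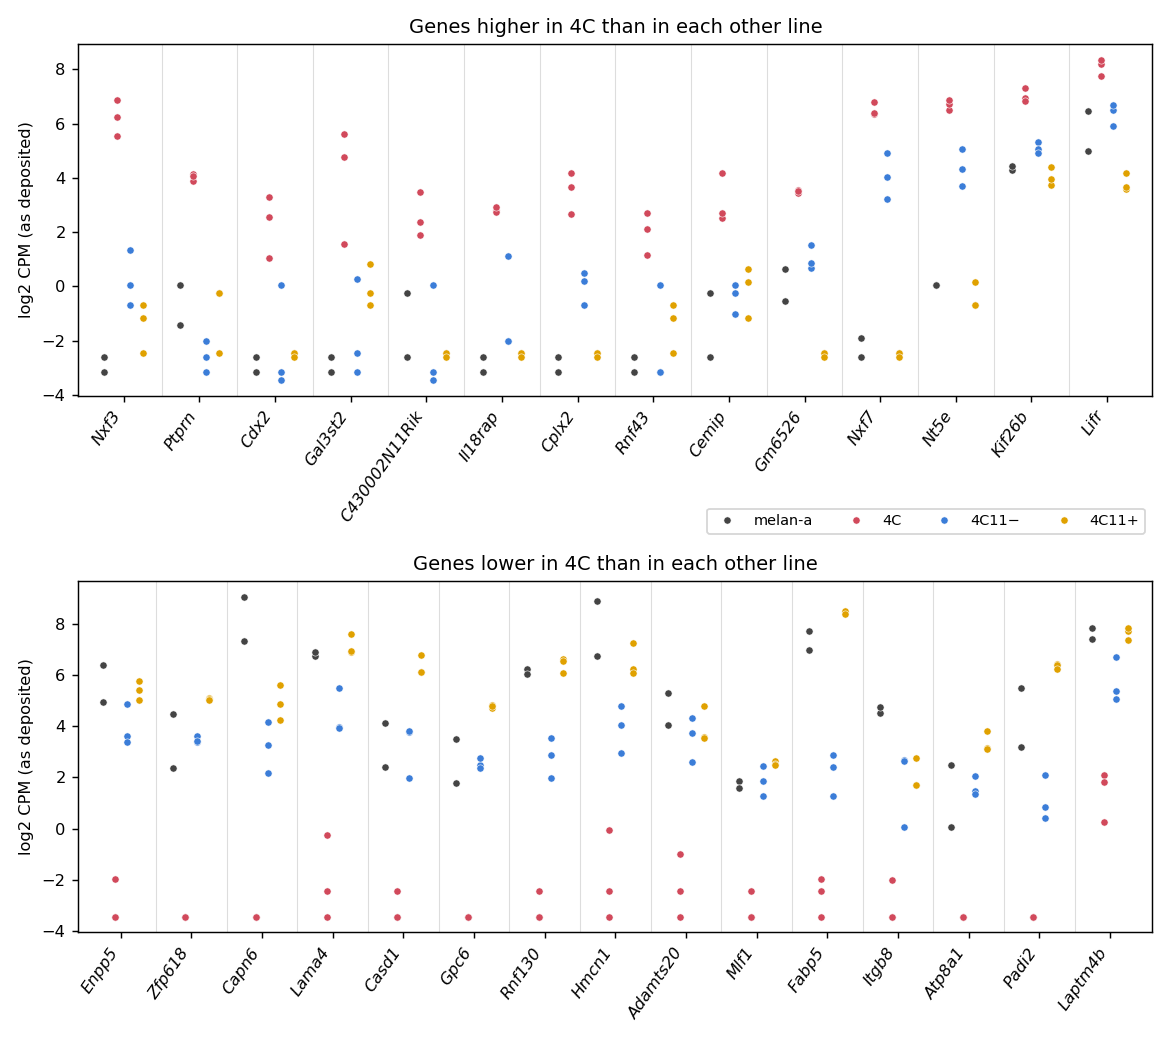
Deposited log2 CPM of 14 higher and 15 lower genes with large differences between 4C and the nearest other line, with 1 point per library. The 4C points lie above all others in the upper panel, from 1.05 for *Cdx2* to 8.35 for *Lifr*, and below all others in the lower panel, at −3.44 in all 3 libraries for *Zfp618*, *Capn6*, *Gpc6*, *Atp8a1* and *Padi2*.

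Among the higher genes apart from each line, the largest difference from the nearest line was that of *Nxf3* (ENSMUSG00000057000, chrX:136072099-136085255, minus strand, GRCm38), a member of the family of nuclear RNA export factors. It was at 5.56, 6.23 and 6.88 log2 CPM in 4C, −3.15 and −2.58 in melan-a, −0.70, 0.06 and 1.35 in 4C11−, and −2.44, −0.70 and −1.16 in 4C11+. All 3 libraries of 4C were high and the 8 others low without overlap, with melan-a and 4C11+ at the floor. The gene was 63.1-fold higher than in 4C11−, the nearest line, which had 3, 8 and 18 reads (5.98 log2 units, SE 0.65, largest of the 3 adjusted p = 0.000664 in limma). Its paralog *Nxf7*, also on chromosome X, was at 6.35, 6.40 and 6.80 in 4C, −1.90 and −2.58 in melan-a, 4.92, 3.21 and 4.03 in 4C11−, and −2.44, −2.44 and −2.58 in 4C11+. Here 4C11− lay between 4C and the 2 lines at the floor, and 4C was 5.51-fold above it (SE 0.46 on the log2 scale, adjusted p = 0.0203 in limma). Reads of such paralogs can be shared between them, so both values are uncertain to that extent.

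Also higher were 2 genes with roles at secretory vesicles. *Ptprn*, a phosphatase-like protein of the membrane of dense-core vesicles, was at 4.15, 3.89 and 4.06 in 4C, 0.06 and −1.42 in melan-a, −2.01, −2.58 and −3.15 in 4C11−, and −2.44, −0.24 and −0.24 in 4C11+. The 3 values of 4C were close together and above all others, at least 16.1-fold higher (largest adjusted p = 0.00134 in limma). *Cplx2*, a complexin that binds the complex by which vesicles fuse, was at 4.18, 2.66 and 3.65 in 4C, −0.70 to 0.48 in 4C11−, and at the floor in melan-a and 4C11+. It was at least 11.1-fold higher in 4C than in each other line, again without overlap (largest adjusted p = 0.00931 in limma).

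Single enzymes and receptors of the cell surface were among the higher genes. *Nt5e*, which encodes CD73, the enzyme that forms adenosine from AMP, was at 6.50, 6.73 and 6.87 in 4C, 0.06 and 0.06 in melan-a, 3.71, 4.33 and 5.08 in 4C11−, and −0.70, 0.15 and −0.70 in 4C11+. The lines followed the order 4C, 4C11−, then the other 2, and 4C was 5.03-fold above 4C11− (2.33 log2 units, SE 0.40, adjusted p = 0.0135 in limma). *Lifr*, the receptor chain for leukemia inhibitory factor, was at 7.77, 8.21 and 8.35 in 4C, 6.46 and 5.00 in melan-a, 5.90, 6.50 and 6.69 in 4C11−, and 3.60, 3.65 and 4.18 in 4C11+. It was 3.35-fold higher in 4C than in 4C11− and did not overlap with any line (adjusted p = 0.0377 in limma). The accessory chain of the interleukin 18 receptor, *Il18rap*, was at 2.83, 2.75 and 2.92 in 4C, −2.01 to 1.13 in 4C11−, and at the floor in melan-a and 4C11+, so that it was at least 7.01-fold higher in 4C. *Cemip*, a hyaluronan-binding protein needed for the breakdown of hyaluronan, was at 2.54, 2.72 and 4.18 in 4C and at most 0.63 in the 8 others. Its nearest line, 4C11+, had 5, 3 and 1 reads, too few for a fold. *Nrp2*, a co-receptor for semaphorins and vascular endothelial growth factors, was abundant in all lines, with 9.23, 9.48 and 9.68 in 4C, 8.46 and 7.35 in melan-a, 7.86, 8.03 and 7.84 in 4C11−, and 8.30, 8.04 and 8.82 in 4C11+. Its 4C values were the highest in each case, 2.11-fold above 4C11+ (1.07 log2 units, SE 0.29, largest adjusted p = 0.0203 in limma).

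Other higher genes act in the cytoskeleton, Wnt signaling and transcription. *Kif26b*, a kinesin family member, was at 7.33, 6.96 and 6.83 in 4C, 4.31 and 4.44 in melan-a, 5.34, 5.08 and 4.90 in 4C11−, and 4.40, 3.73 and 3.96 in 4C11+. The 4 lines varied little within themselves, and 4C was 3.82-fold above 4C11− (1.93 log2 units, SE 0.26, adjusted p = 0.00247 in limma). *Dock5*, an activator of the GTPase Rac, was at 6.78 to 7.36 in 4C and 4.68 to 6.06 in the others, 3.02-fold above 4C11+ (largest adjusted p = 0.0261 in limma). *Rnf43*, a ubiquitin ligase that removes Frizzled receptors from the cell surface, was at 2.13, 1.15 and 2.72 in 4C against −3.15 to 0.06 in the others, at least 3.94-fold higher. *Cdx2*, a homeobox factor known from the intestine, was at 3.29, 2.55 and 1.05 in 4C against −3.44 to 0.06, at least 4.84-fold higher. The sulfotransferase *Gal3st2* was at 1.58, 4.77 and 5.63 in 4C, with replicate 1 far below the other 2, and at −3.15 to 0.84 in the others. Its nearest line, 4C11+, had 6, 2 and 2 reads, too few for a fold. Also higher were *Gm6526*, a predicted gene, at 3.44 to 3.55 in 4C against −2.58 to 1.51, and the noncoding transcript *C430002N11Rik*, at 1.90 to 3.50 against −3.44 to 0.06; genes that overlap others or have near-identical copies are uncertain where reads could be split between them.

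Of the 17 higher genes that the naming rules select, 4 stayed past the threshold under every alternative tried, among them *Nxf3*, *Ptprn* and *Kif26b*. The other 13 lost it without 4C replicate 3 and without 4C11− replicate 2. Leaving out single libraries ended the call of 12 of the 17 (4C replicate 2), 10 (4C11− replicate 3), 8 (4C replicate 1 and also 4C11+ replicate 1), 7 (4C11+ replicate 2), 5 (4C11− replicate 1 and also 4C11+ replicate 3) and 2 (melan-a replicate 3), and adjustment over the largest p of each gene ended that of 11.

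Among the genes lower in 4C than in each other line were some of the matrix and the cell surface. *Lama4*, the alpha 4 chain of laminin, was at −0.25, −2.44 and −3.44 in 4C, 6.74 and 6.91 in melan-a, 5.49, 3.99 and 3.93 in 4C11−, and 6.91, 6.93 and 7.62 in 4C11+. It was low in 4C and abundant in every other line, with 5, 1 and 0 reads in 4C, too few for a fold (largest adjusted p = 0.00054 in limma). *Hmcn1*, a large extracellular protein of the immunoglobulin superfamily, was at −0.04, −2.44 and −3.44 in 4C, 8.89 and 6.73 in melan-a, 2.97, 4.78 and 4.06 in 4C11−, and 6.24, 6.07 and 7.24 in 4C11+. Again 4C lay below all others, with 6, 1 and 0 reads (largest adjusted p = 0.00364 in limma). *Gpc6*, a glypican that carries heparan sulfate at the membrane, was at −3.44 in each 4C library, 1.77 and 3.50 in melan-a, 2.48, 2.77 and 2.36 in 4C11−, and 4.71, 4.84 and 4.80 in 4C11+, at least 13.9-fold lower in 4C than in each other line. *Itgb8*, the integrin chain that activates latent TGF-β, was at −3.44, −3.44 and −2.01 in 4C, 4.53 and 4.76 in melan-a, 0.06, 2.67 and 2.64 in 4C11−, and 1.70, 1.68 and 2.75 in 4C11+. It was at the floor in 4C and at least 8.28-fold lower there than in 4C11− (largest adjusted p = 0.00588 in limma).

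Also lower were 2 secreted metalloproteases of the ADAMTS family. *Adamts20*, whose mutation gives the belted coat of mice through loss of melanoblasts, was at −1.01, −3.44 and −2.44 in 4C, 4.03 and 5.30 in melan-a, 2.60, 3.72 and 4.32 in 4C11−, and 3.58, 3.54 and 4.80 in 4C11+. *Adamts9* was at 1.47, −0.21 and −0.25 in 4C, 6.65 and 6.96 in melan-a, 4.21, 4.33 and 4.00 in 4C11−, and 4.31, 4.13 and 4.41 in 4C11+. In both, 4C11− and 4C11+ lay close to each other and 4C far below (largest adjusted p = 0.000954 and 0.000696 in limma). The fold below 4C11− was at least 28.0 for *Adamts20*, at the floor in 4C. For *Adamts9*, with 17, 7 and 5 reads in 4C, it was 14.4 by the fit, which is no bound.

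*Enpp5*, a membrane protein of the nucleotide pyrophosphatase family, was at −1.98, −3.44 and −3.44 in 4C, 6.41 and 4.96 in melan-a, 4.85, 3.60 and 3.37 in 4C11−, and 5.75, 5.40 and 5.02 in 4C11+. *Capn6*, a calpain that lacks the catalytic cysteine, was at −3.44 in each 4C library, 9.06 and 7.33 in melan-a, 2.18, 4.16 and 3.26 in 4C11−, and 4.86, 4.24 and 5.63 in 4C11+. Both were at the floor in 4C and read in every other library, at least 36.8-fold lower in 4C than in 4C11− for *Enpp5* and at least 22-fold for *Capn6* (largest adjusted p = 8.92e-05 and 0.000137 in limma). *Fabp5*, a carrier of fatty acids, was at −1.98, −3.44 and −2.44 in 4C, 7.0 and 7.74 in melan-a, 2.88, 2.41 and 1.26 in 4C11−, and 8.47, 8.49 and 8.40 in 4C11+. It was low in both mesenchymal-like lines and lowest in 4C, at least 10.9-fold below 4C11− (largest adjusted p = 0.000334 in limma), and its pseudogenes may share its reads. *Laptm4b*, a lysosomal membrane protein, was at 2.08, 0.26 and 1.83 in 4C, 7.84 and 7.40 in melan-a, 6.70, 5.06 and 5.40 in 4C11−, and 7.73, 7.85 and 7.36 in 4C11+. This gene was read in all lines, and 4C was 20.1-fold below 4C11− (4.33 log2 units below, SE 0.50, largest adjusted p = 0.000954 in limma).

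Lower in 4C were also a melanosome GTPase, a cadherin and 2 homeobox factors. *Rab32*, a small GTPase that carries melanin enzymes to the melanosome, was at 1.13, −1.01 and 0.06 in 4C, 4.85 and 6.64 in melan-a, 4.16, 3.44 and 4.06 in 4C11−, and 6.29, 6.21 and 6.14 in 4C11+. It was thus the listed melanosome gene in which 4C lay apart from 4C11− as well, 14.2-fold below it (adjusted p = 0.0041 in limma). With 13, 4 and 6 reads in 4C, this fold is rough. *Celsr2*, an atypical cadherin of planar cell polarity, was at −1.01, 0.44 and −0.25 in 4C and at 2.09 to 5.50 in the 8 others, with 4C11− the nearest line (adjusted p = 0.00591 in limma). With 3, 10 and 5 reads in 4C, no fold is given. *Alx1*, a homeobox factor of craniofacial mesenchyme, was at 1.13, 1.39 and 1.05 in 4C, 5.23 and 5.50 in melan-a, 4.12, 4.06 and 4.37 in 4C11−, and 6.01, 6.01 and 5.73 in 4C11+. The spread within each line was small, and 4C was 7.98-fold below 4C11− (adjusted p = 0.00013 in limma). Its relative *Alx4* was at −3.44 in each 4C library, 0.87 and −1.42 in melan-a, 0.69, 1.14 and 0.22 in 4C11−, and −0.70, −0.70 and −1.16 in 4C11+. Since 4C and 4C11+ were both at the floor, no fold is given between them, and the call was lost without 4C11− replicate 2, without melan-a replicate 2 and with adjustment over the largest p of each gene.

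*Sdhb*, the iron-sulfur subunit of succinate dehydrogenase, showed the smallest fitted shift among the 22 lower genes selected for naming, though not among all 63. It was at 6.87, 6.53 and 6.54 in 4C, 7.79 and 7.42 in melan-a, 7.79, 7.89 and 7.45 in 4C11−, and 8.46, 8.54 and 8.06 in 4C11+. The 4C libraries were the lowest without overlap, 1.94-fold below melan-a (0.96 log2 units below, SE 0.24, largest adjusted p = 0.0321 in limma), and the call was lost without 4C replicate 2, 4C replicate 3, 4C11+ replicate 1, 4C11+ replicate 2, 4C11− replicate 1, 4C11− replicate 2 or melan-a replicate 2, without the mean-variance trend, with adjustment over the largest p of each gene, or with each difference required to reach 1. Of the 22 lower genes named, the 20 besides *Sdhb* and *Alx4* stayed past the threshold under every alternative tried. Among the remaining ones, *Atp8a1*, a phospholipid flippase, and *Padi2*, which converts arginine to citrulline in proteins, were at −3.44 in each 4C library, at least 5.81-fold and 5.21-fold lower than in the nearest line.

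Read by presence and absence, 10 genes (0.0701%) were off in 4C alone, with every 4C library at or under 3 reads and every other library above 10. The opposite pattern, above 10 reads in 4C and at or under 3 in all others, was met by 0 genes, a count without a test that decides nothing. The authors kept a gene only if 4 or more libraries reached 1 CPM. In the deposited values 3 reads were under 1 CPM except in 4C11+ replicates 1 and 2, at 0.15 log2 CPM. A gene read in the 3 4C libraries alone was therefore removed beforehand, unless melan-a replicate 1, not analysed here, or 1 of these 2 libraries carried it. By limma, 20 higher genes were apart from each line. *Zfp618*, a zinc finger protein, *Gpc6* and *Capn6* had 0 reads in each 4C library. Their lowest value elsewhere was 29 reads (melan-a replicate 3), 13 reads (melan-a replicate 2) and 23 reads (4C11− replicate 1), in that order. *Casd1*, the enzyme that acetylates sialic acids, and *Rnf130*, a ubiquitin ligase with a RING finger, had 0, 1 and 0 reads in 4C and at least 20 and 29 reads elsewhere. *Mlf1*, named for its fusion in myeloid leukemia, had 1, 0 and 0 reads in 4C, 14 and 16 in melan-a, 12, 27 and 36 in 4C11−, and 25, 22 and 30 in 4C11+. *Tpd52l1*, a protein of the D52 family, had 2, 1 and 1 reads in 4C, 13, 27 and 18 in 4C11−, and 100 or more in each melan-a and 4C11+ library. *Enpp5*, *Adamts20* and *Fabp5* were the other 3. The lower bounds of the fold below the nearest line were 25.8 for *Zfp618*, 21.7 for *Casd1*, 16.7 for *Rnf130*, 7.95 for *Mlf1* and 6.89 for *Tpd52l1*. Without 4C11− replicate 1 the number on or off was 20, with 14 off and 6 on (*Il18rap*, *Inpp5d*, *Cdx2*, *Rnf43*, *Krt4* and *C430002N11Rik*, of which *Inpp5d* and *Krt4* were named after their values were seen). In these 6 genes 4C11− replicate 1 had 5 to 11 reads and, among the libraries used here, was the 4 th over 1 CPM that the filter required. They could therefore count as on only with it left out. The number off was 18 without 4C replicate 1, and 1 gene was on without melan-a replicate 2, melan-a replicate 3 or 4C11− replicate 3.

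**Figure D3:**
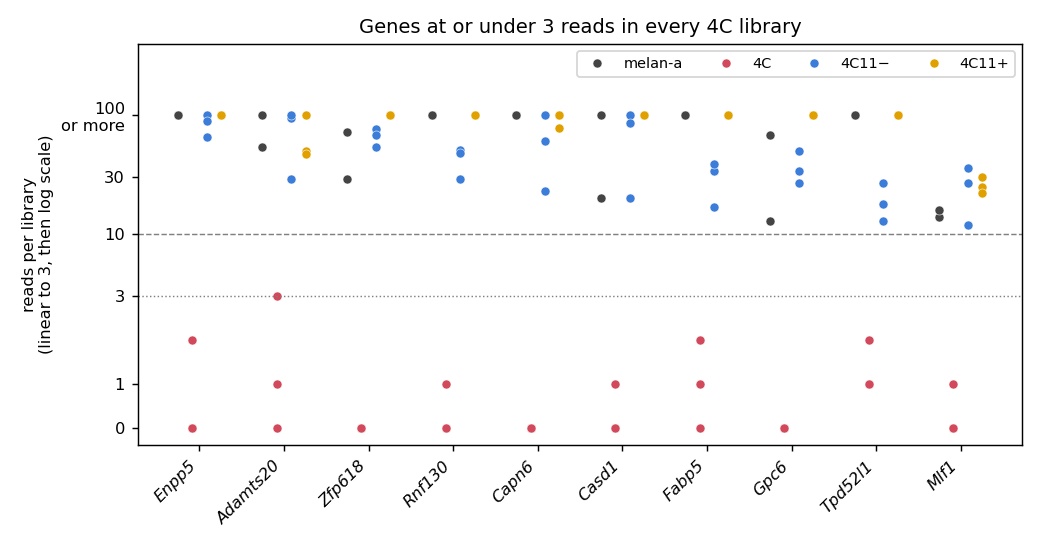
Reads per library (linear to 3, then a log scale, with values of 100 or more drawn at 100) of the 10 genes off in 4C alone, with 1 point per library. The dotted line marks 3 reads and the dashed line 10 reads; every 4C point lies at or under 3 and every other point above 10, the lowest at 12 for *Mlf1*.

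Promoters of the genes particular to 4C were searched for 5 short motifs. A RefSeq promoter of 300 bases around the start (GRCm38.p6) was matched for 58 of the 83 genes, 16 higher and 42 lower, and for 9928 of all genes; some genes had several, and a gene was counted if any of its promoters held the motif. On either strand, the AP-1 motif TGANTCA was found for 0 of the higher (0%), 4 of the lower (9.52%) and 597 of all matched genes (6.01%), and in 2 of the 7 matched genes that were off in 4C alone (28.6%). The M-box TCATGTG was in 0, 2 (4.76%) and 264 (2.66%) of the higher, lower and all matched genes, the TCF motif CTTTGAT in 2 (12.5%), 2 (4.76%) and 306 (3.08%), the TEAD motif GGAATG in 2 (12.5%), 7 (16.7%) and 1433 (14.4%), and the hypoxia motif ACGTG in 3 (18.8%), 7 (16.7%) and 2909 (29.3%). Of the 7 off genes, 2 also held the hypoxia motif (28.6%), 1 the TEAD motif (14.3%) and 0 the M-box or TCF motif. The median number of CpG dinucleotides, from the promoter of a gene with the most, was 17.5 for the higher, 23 for the lower and 22 for all matched genes. A match describes these letters only. Shown are the promoters of *Capn6* (chrX:143827363-143827662, minus strand) and *Mlf1* (chr3:67373847-67374146, plus strand), the 2 off genes with the AP-1 motif in capitals, and of *Nrp2* (chr1:62703067-62703366, plus strand), a higher gene with the TCF motif in capitals.
Capn6: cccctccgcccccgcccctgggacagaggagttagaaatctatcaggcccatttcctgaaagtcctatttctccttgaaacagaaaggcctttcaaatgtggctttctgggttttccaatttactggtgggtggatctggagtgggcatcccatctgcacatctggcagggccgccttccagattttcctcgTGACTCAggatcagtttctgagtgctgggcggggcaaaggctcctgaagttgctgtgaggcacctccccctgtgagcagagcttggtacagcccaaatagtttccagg
Mlf1: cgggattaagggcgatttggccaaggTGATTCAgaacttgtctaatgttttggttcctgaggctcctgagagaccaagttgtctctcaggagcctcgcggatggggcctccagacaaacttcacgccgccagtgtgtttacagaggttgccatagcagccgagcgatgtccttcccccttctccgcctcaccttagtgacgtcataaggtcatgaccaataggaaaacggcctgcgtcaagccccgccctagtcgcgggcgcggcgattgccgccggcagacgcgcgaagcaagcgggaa
Nrp2: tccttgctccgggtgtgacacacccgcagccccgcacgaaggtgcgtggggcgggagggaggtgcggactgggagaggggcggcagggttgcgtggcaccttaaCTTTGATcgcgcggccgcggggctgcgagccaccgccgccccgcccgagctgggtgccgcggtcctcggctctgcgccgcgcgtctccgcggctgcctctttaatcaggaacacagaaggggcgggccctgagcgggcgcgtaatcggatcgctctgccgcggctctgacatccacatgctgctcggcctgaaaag

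Gene lists of pathways and cell functions were read against the background of 7.92% higher and 9.01% lower genes and a median difference of −0.03 from the mean of the other lines. Of 1074 genes in 32 lists, 826 were measured, and 12 of them, in 10 lists, were apart from each other line. In what follows, higher and lower refer to limma's call against the mean of the other lines, each median is the median difference from that mean with its value at the bounds after it, and examples are given as the lowest and highest value of a line.

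Most measured genes of the 2 pigment cell lists were lower in 4C than the mean of the others, and 1 of them was lower than in 4C11−. Of 12 measured lineage factors and receptors of melanocytes 2 were higher and 9 lower (median −2.09, at bounds −2.09), and of 21 genes of melanin synthesis and the melanosome 0 were higher and 14 lower (16 at an unadjusted p under 0.05, median −4.12, at bounds −2.80). Against 4C11− limma called 0 of the 12 and, of the 21, *Rab32*. *Mc1r*, the receptor for melanocyte-stimulating hormone, ranged from −3.44 to −0.25 in 4C and from −3.44 to −0.70 in 4C11−, against 6.13 and 6.43 in melan-a and 5.93 to 6.97 in 4C11+. *Dct*, an enzyme of melanin synthesis, ranged from −2.44 to 0.87 in 4C and from −2.58 to −0.24 in 4C11−, against 9.04 and 10.81 in melan-a and 11.39 to 11.91 in 4C11+. In both genes 4C overlapped with 4C11− and lay far below the other lines.

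In the lists of mesenchymal transcription factors and cytoskeleton more genes were called higher than lower in 4C, while most members were not called higher. Of 11 transcription factors of the epithelial to mesenchymal transition (EMT) 5 were higher and 2 lower (median 1.15, at bounds 0.48), and of 22 contractile and mesenchymal cytoskeleton genes 9 were higher and 1 lower (median 0.80, at bounds 0.80), in each case with 0 higher and 1 lower than in 4C11−. *Prrx2*, a homeobox factor of mesenchyme, ranged from 5.27 to 5.86 in 4C and 4.68 to 5.33 in 4C11− and was at the floor in melan-a and 4C11+. *Snai2*, an EMT factor that is also active in melanocytes, went the other way, at −3.44 in each 4C library against 3.13 and 3.18 in melan-a, −2.01 to 1.13 in 4C11− and 0.15 to 0.88 in 4C11+. *Acta2*, the smooth muscle actin, ranged from 8.13 to 9.96 in 4C and 8.35 to 8.61 in 4C11−, and from −2.58 to 0.15 in the 2 epithelial lines. Of 14 cadherins and protocadherins 2 were higher and 7 lower (median −0.81, at bounds −1.24), with *Celsr2* apart from each line. *Cdh19*, a cadherin of neural crest derivatives, was at −3.44 in each 4C library and at the floor in 4C11−, against 4.66 and 5.29 in melan-a and 4.31 to 6.52 in 4C11+.

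Matrix and adhesion genes moved in both directions. Of 50 matrix proteins 24 were higher and 10 lower (median 1.26, at bounds 1.23), with *Lama4* apart from each line, and 0 were higher and 3 lower than in 4C11−. *Bgn*, the proteoglycan biglycan, ranged from 8.80 to 9.59 in 4C and 8.77 to 9.18 in 4C11− against −1.16 to 1.63 in the others, while *Col9a1*, a collagen chain known from cartilage, ranged from −3.44 to −2.44 in 4C against 5.98 and 6.31 in melan-a, −2.01 to 1.44 in 4C11− and 2.78 to 3.75 in 4C11+. Of 19 integrins 4 were higher and 3 lower (median 0.40, at bounds 0.40), with *Itgb8* apart. *Itga3*, a laminin receptor chain, ranged from 8.76 to 9.36 in 4C and 8.20 to 8.82 in 4C11−, against 6.90 and 6.73 in melan-a and 1.04 to 1.70 in 4C11+. Of 30 matrix proteases and inhibitors 10 were higher and 4 lower (median 0.67, at bounds 0.62), with *Adamts9* apart and *Timp1*, an inhibitor of metalloproteases, at 4.94 to 5.54 in 4C, 4.55 to 5.22 in 4C11−, 3.56 to 4.00 in 4C11+ and the floor in melan-a.

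**Figure D4:**
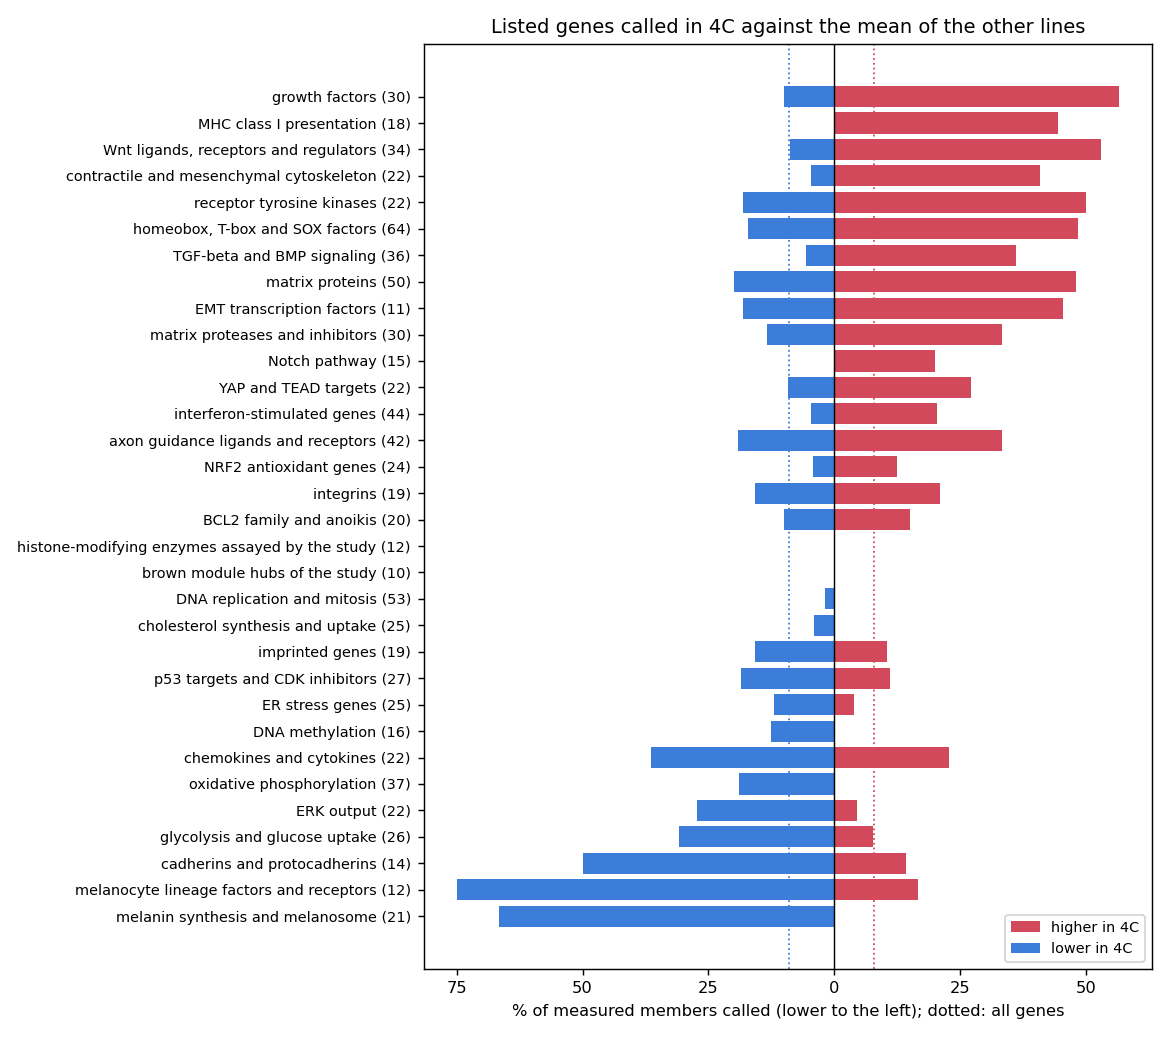
Share of the measured members of each list, in percent, called higher (to the right) or lower (to the left) in 4C than the mean of the other lines, with the number measured in brackets and dotted lines at 7.92% and 9.01% for all genes. The growth factor, receptor tyrosine kinase and Wnt lists reach farthest to the right, and the 2 melanocyte lists farthest to the left.

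In 4 lists of ligands, receptors and signaling, more genes were higher than lower in 4C; against 4C11−, where 58 of all genes were higher and 180 lower, 4 of their members were higher and 4 lower. Of 30 growth factors and their binding proteins 17 were higher and 3 lower (median 1.77, at bounds 1.40), and of 22 receptor tyrosine kinases 11 were higher and 4 lower (median 0.59, at bounds 0.48), with 1 of each list higher and 1 and 2 lower than in 4C11−. *Egfr*, the epidermal growth factor receptor, ranged from 4.03 to 4.60 in 4C and 4.29 to 5.13 in 4C11− and was at the floor in melan-a and 4C11+, whereas *Kit*, the receptor on which melanocytes depend, ranged from −3.44 to −0.04 in 4C against 6.92 and 6.18 in melan-a. Over the 8 other libraries together the difference of *Kit* was −3.82. Against 4C11− limma called 0 of the 12 measured lineage genes, *Kit* among them, so its low value was not shown to be particular to 4C. *Vegfc*, a lymphatic growth factor, was at −3.44 in each 4C library against 4.33 and 4.33 in melan-a, −3.44 to −2.01 in 4C11− and 3.92 to 4.10 in 4C11+. Of 34 Wnt ligands, receptors and regulators 18 were higher and 3 lower (median 1.20, at bounds 0.98), 2 were higher and 1 lower than in 4C11−, and *Rnf43* was apart. *Notum*, which inactivates Wnt ligands, ranged from 3.06 to 4.75 in 4C and 0.42 to 2.83 in 4C11−, against −3.15 to −0.70 in the others. *Wnt6* ranged from 6.53 to 6.71 in 4C, 5.61 to 6.53 in 4C11−, 0.44 to 1.04 in 4C11+ and was at the floor in melan-a. Of 36 members of TGF-β and BMP signaling 13 were higher and 2 lower (median 1.03, at bounds 0.96), with 0 higher and 0 lower than in 4C11−. *Ltbp2*, a latent TGF-β binding protein, was at 6.05, 8.59 and 7.63 in 4C, 3.91 to 5.41 in 4C11−, against −1.42 to 0.06 in the others, and *Nog*, an inhibitor of BMPs, ranged from 4.04 to 5.10 in 4C and 3.13 to 4.00 in 4C11−. In *Wnt6* 4C touched the range of 4C11−, and in *Notum*, *Ltbp2* and *Nog* it lay above it without being apart by the rule.

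Of 42 axon guidance genes 14 were higher and 8 lower (median 0.04, at bounds 0.00), with *Nrp2* apart; *Ntn1*, netrin 1, ranged from 6.70 to 7.18 in 4C and 6.85 to 7.57 in 4C11− against −2.44 to 0.06 in the others. Of 15 Notch pathway genes 3 were higher and 0 lower (7 at an unadjusted p under 0.05, median 0.31, at bounds 0.27), and none of these calls was stable. That of *Notch3*, at 4.15 to 5.49 in 4C, was lost without 4C replicate 1, 4C replicate 2, 4C replicate 3 or 4C11− replicate 2, and those of the ligand *Jag2* and the coactivator *Maml3* were lost without 4C replicate 1, 4C replicate 2, 4C11+ replicate 1, 4C11+ replicate 2, 4C11− replicate 2 or melan-a replicate 3, among others. Of 22 YAP and TEAD targets 6 were higher and 2 lower (median 0.60, at bounds 0.60), with *Nt5e* and *Dock5* apart. Of 22 genes of ERK output 1 was higher and 6 lower (median −0.32, at bounds −0.40). *Etv5*, a transcription factor induced by ERK, was at 4.95, 0.69 and 2.25 in 4C, 6.67 and 7.61 in melan-a, 6.75, 5.26 and 5.60 in 4C11−, and 5.86, 6.24 and 5.83 in 4C11+, and *Spry2*, an inhibitor of the same pathway, was at 3.45, 1.96 and 2.55 in 4C and 4.29, 3.02 and 3.08 in 4C11−. The 4C values of *Etv5* were spread over 4 log2 units and all lay below the other 8 libraries, while those of *Spry2* overlapped with 4C11−.

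Immune genes showed a mixed picture. Of 22 chemokines and cytokines 5 were higher and 8 lower (median 0.22, at bounds 0.22). *Cxcl14* ranged from 4.29 to 4.91 in 4C and 3.52 to 5.23 in 4C11− and was at the floor in melan-a and 4C11+, and *Cxcl10*, an interferon-induced chemokine, was at 0.20, −1.01 and −3.44 in 4C against 1.97 to 5.90 in the 8 others. Of 44 interferon-stimulated genes 9 were higher and 2 lower (median 0.17, at bounds 0.17), and 0 were higher and 4 lower than in 4C11−. *Rsad2*, the antiviral protein viperin, was at 3.06, 1.58 and 2.31 in 4C, 6.22 and 3.78 in melan-a, 7.02, 5.16 and 4.44 in 4C11−, and 3.74, 3.28 and 4.07 in 4C11+, below all others, and its call was lost without 4C replicate 2 or 4C replicate 3. Of 18 genes of MHC class I presentation 8 were higher and 0 lower (12 at an unadjusted p under 0.05, median 1.31, at bounds 1.31). *Tap2*, a subunit of the peptide transporter, ranged from 4.58 to 5.23 in 4C and 4.33 to 5.64 in 4C11−, against −1.16 to 1.63 in the others, and *Erap1*, which trims peptides for class I, ranged from 6.07 to 6.64 in 4C and 4.41 to 5.73 in 4C11−, against 3.45 to 4.30 in the others. *Tap2* overlapped between 4C and 4C11−, and *Erap1* did not.

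Proliferation and survival were read in 3 lists. Of 53 genes of DNA replication and mitosis 0 were higher and 1 lower (7 at an unadjusted p under 0.05, median 0.16, at bounds 0.16); this gene was *E2f2*, at 2.72 to 3.60 in 4C against 3.90 to 5.94 in the others, and its call was lost without 4C replicate 2 or 4C replicate 3. Of 27 p53 targets and CDK inhibitors 3 were higher and 5 lower (median −0.43, at bounds −0.43), with *Cdkn2a*, the locus of p16 and p19, at 6.32 to 6.81 in 4C, 6.87 to 7.90 in 4C11−, 7.36 and 6.59 in melan-a and the floor in 4C11+. Of 20 genes of the BCL2 family and anoikis, the cell death that follows loss of anchorage, 3 were higher and 2 lower (median 0.10, at bounds 0.10). The higher calls of *Bcl2l1* and *Ptk2* were lost without 4C replicate 2 or 4C replicate 3, among others for *Ptk2*. *Cav1*, caveolin 1, ranged from 2.41 to 3.78 in 4C and 1.57 to 3.20 in 4C11− and was at the floor in melan-a and 4C11+, and *Tle1*, a corepressor, ranged from 3.16 to 4.10 in 4C against 4.50 to 5.91 in the others, without overlap.

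Of the 5 metabolic and stress lists, all but that of NRF2 had more lower than higher genes. The share called was 4% for cholesterol, 16% for ER stress and 16.7% for NRF2, not above the 16.9% of all genes. These lists therefore show no trend, and that of oxidative phosphorylation was little above it at 18.9%. Of 26 genes of glycolysis and glucose uptake 2 were higher and 8 lower (median −0.43, at bounds −0.43). *Eno1*, enolase, was at 9.91, 9.40 and 9.11 in 4C, 10.74 and 11.03 in melan-a, 10.17, 10.06 and 10.25 in 4C11−, and 11.03, 11.11 and 11.27 in 4C11+, lowest in 4C. The glucose transporter *Slc2a3* was opposite, at 7.44 to 7.79 in 4C, 5.12 to 6.54 in 4C11−, 5.80 to 5.93 in 4C11+ and 0.06 and 4.03 in melan-a. Of 37 genes of oxidative phosphorylation 0 were higher and 7 lower (17 at an unadjusted p under 0.05, median −0.43, at bounds −0.43), with *Sdhb* apart and *Uqcrh*, a subunit of complex III, at 6.31 to 6.79 in 4C against 7.21 to 8.30 in the others. Of 25 genes of cholesterol synthesis and uptake 0 were higher and 1 lower (6 at an unadjusted p under 0.05, median −0.47, at bounds −0.47). Of 24 NRF2 antioxidant genes 3 were higher and 1 lower (median −0.11, at bounds −0.11), and *Nqo1*, a quinone reductase, ranged from 7.71 to 8.56 in 4C and 7.68 to 8.58 in 4C11− against 2.65 and 2.86 in melan-a. Of 25 ER stress genes 1 was higher and 3 lower (median −0.33, at bounds −0.33), and *Atf3*, a stress-induced transcription factor, ranged from 2.89 to 3.47 in 4C against 4.36 to 5.95 in the others. The lower calls of *Ddit3* and *Sesn2* were lost without 4C replicate 1, 4C replicate 2, 4C replicate 3 or 4C11+ replicate 1, among others for *Sesn2*.

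Developmental and chromatin genes closed the lists. Of 64 homeobox, T-box and SOX factors 31 were higher and 11 lower (median 1.71, at bounds 0.56), 0 were higher and 5 lower than in 4C11−, and *Alx1* and *Alx4* were apart. *Hoxc11* ranged from 4.47 to 4.83 in 4C and 3.80 to 4.67 in 4C11− and was at the floor in melan-a and 4C11+, whereas *Sox6* ranged from −0.70 to −0.25 in 4C against 6.67 and 6.19 in melan-a and 5.86 to 7.45 in 4C11+. Over the 8 other libraries together the difference of *Sox6* was −4.51. *Sox6* was not apart from each line by the rule, so a low value was not shown to be particular to 4C against 4C11−. Of 19 imprinted genes 2 were higher and 3 lower (median 0.12, at bounds 0.05). *Igf2*, a fetal growth factor expressed from the paternal allele, was at 4.38, 3.83 and 4.77 in 4C, 0.87 and −0.24 in melan-a, 8.72, 8.83 and 8.50 in 4C11−, and −2.44, −0.70 and −1.16 in 4C11+. So 4C lay between 4C11− and the 2 epithelial lines without overlap with either, and the call against the mean was lost without 4C replicate 3. Of 16 genes of DNA methylation 0 were higher and 2 lower (5 at an unadjusted p under 0.05, median 0.08, at bounds 0.08), among them *Dnmt3a*, a de novo methyltransferase, at 4.80 to 5.48 in 4C against 5.61 to 7.63 in the others. The other call, of the DNA glycosylase *Tdg*, was lost without the mean-variance trend and without 4C replicate 2, 4C replicate 3, 4C11+ replicate 1, 4C11+ replicate 2, 4C11− replicate 2, 4C11− replicate 3 or melan-a replicate 3. Of the 12 histone-modifying enzymes that the study assayed limma called 0 against the mean (3 at an unadjusted p under 0.05, median 0.17, at bounds 0.17). Against single lines, 2 were higher and 1 lower than in melan-a, 1 was higher than in 4C11+, and 0 were called against 4C11−. *Kdm2b*, a histone demethylase, was at 6.42, 6.50 and 6.34 in 4C and 5.49 to 6.35 in the others. *Ep300*, an acetyltransferase, passed the threshold without melan-a replicate 2 (difference 0.86), as did the deacetylase *Hdac11* (2.21), whose melan-a values were 2.85 and −2.58. With library weights, which ran from 0.214 to 6.45, *Ep300*, *Nsd1*, *Setd2* and *Kdm2b* passed it as higher and *Hdac3* as lower, and *Setd2*, a histone methyltransferase, also with a replicate block (adjusted p = 0.0324 in limma). Of the 10 brown module hubs, which the study chose on these samples and which are therefore no independent evidence, limma called 0 (0 at an unadjusted p under 0.05, median 0.67, at bounds 0.67). *Uba6*, a ubiquitin-activating enzyme among them, was at 5.55, 6.63 and 6.46 in 4C and at 2.60, 6.02 and 6.61 in 4C11−, where replicate 1 stood apart. With library weights *Uba6*, *Fam208b* and *Bod1l* passed the threshold.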

How the data were processed

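Total RNA of triplicates of each line was sequenced from stranded libraries. According to the methods and the submitters' processing notes, the authors trimmed the reads with Trimmomatic, aligned them with STAR to GRCm38 (Ensembl 90), assigned them to genes, kept a gene if 4 or more libraries reached 1 CPM, and then used voom of limma; versions and the strand setting of the counting are not given in the sources used here, and without it reads of overlapping antisense genes cannot be told apart. What the authors deposited is log2 CPM, and the 11 libraries share 1 highest value, as after a quantile normalization. They were used as they are (library medians spanned 0.0106). Reads were inferred from the order of the lowest distinct values, up to 100. Coordinates are from GENCODE M21.

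limma 3.58.1 (R 4.3.3) was fitted with a mean for each of the 4 lines and a mean-variance trend, with Benjamini-Hochberg adjustment over 14272 genes (24 without a symbol), and called at 0.05. The fit was tested on simulated data, and tables and plots were made with Python 3.11.15, pandas 2.3.3, NumPy 2.4.6 and matplotlib 3.10.9. Genes named are the 15 higher and 15 lower with the largest difference from the nearest line among genes apart from each line without overlap, list members apart, genes on or off in 4C alone, the histone enzymes and hubs, and up to 4 called members of each other list by size, of which some are given; others are not reported here. The members, lists and rules were chosen with earlier results of these data known. As alternatives, the libraries were normalized again or centred, low genes removed, the variance model, library weights, replicate block, line weights and read limits changed, and single libraries left out. Library weights used the gene-by-gene method, since the default estimate stopped before converging. P-values measure the spread between libraries of a line.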

Additional observations from a re-analysis of the deposited data

How the results depend on the processing

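Over the alternatives, the counts against the mean of the other lines and of genes apart kept within 1.5 times under a further quantile normalization, median centring, a robust variance model and no mean-variance trend. With 4C against the others as 2 groups, so that differences between the other lines count as spread, 103 genes were called (24 higher, 79 lower), fewer by that construction. With library weights 5322 were called (2413 higher, 2909 lower) and 485 were apart (191 higher, 294 lower), and the cause was not tested. Fewer genes were apart with a mean log2 value of at least 1 (50, 7 of them higher) and with adjustment over the largest p of each gene (40, 6 higher and 34 lower). The number off in 4C alone was 5 with more than 20 reads required elsewhere and 3 with 0 reads required in 4C.

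With 1 library left out at a time, the counts were 1323 to 2737 genes against the mean (691 to 1418 higher, 632 to 1362 lower), 38 to 104 apart (4 to 36 higher, 33 to 83 lower), and 10 to 20 on or off (0 to 6 on, 10 to 18 off); a line left with 1 library is assumed to vary like the others. With a replicate block, 2733 genes were called against the mean (1285 higher, 1448 lower) and 99 were apart (28 higher, 71 lower). Same-numbered libraries of 4C and another line had deviations that correlated at −0.23 to 0.24 over 8 pairs (4 above 0.1), and no block was used; pairs among the other lines were not tested. Of 4011 alternative values for the 164 genes named by the rules, 3689 kept their side of the threshold, 311 lost it, 11 gained it and 0 turned direction. A gene near 3 reads gives no size of a difference.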

Other observations

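By position, the genes lower in 4C than in each other line included several from the proximal part of chromosome 10, a stretch chosen after the values were seen and therefore given without a test. Between chr10:3366057-43174530 (39.81 megabases), 153 genes were tested, and 9 of them (5.88%) were apart and lower, against 0.441% of all genes, while 0 were apart and higher; the ends of the stretch are those of the first and last of these genes: *Ppp1r14c*, *Plekhg1*, *Adgb*, *Rab32*, *Eya4*, *Tpd52l1*, *Lama4*, *Fyn* and *Sobp*. *Fyn*, a kinase of the Src family, was at 3.86, 3.25 and 3.0 in 4C, 6.81 and 6.23 in melan-a, 5.70, 4.96 and 5.23 in 4C11−, and 6.50, 6.54 and 6.33 in 4C11+, below all others. The median difference of the 153 genes was −0.55 from melan-a, −0.02 from 4C11− and −0.77 from 4C11+, beside −0.06, −0.01 and −0.08 over all genes. Elsewhere, *Enpp5* and *Enpp4* on chromosome 17, 9741 bases apart, were both lower in 4C, as were *Padi2* and *Sdhb* on chromosome 4, 8617 bases apart.

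Other genes apart from each line, also named after their values were seen, were *Mcam*, *Ppargc1a* and *Phldb2*. *Mcam*, the melanoma cell adhesion molecule, was at 7.28, 7.95 and 7.82 in 4C, 9.93 and 10.55 in melan-a, 9.71, 8.62 and 9.28 in 4C11−, and 8.58, 8.74 and 9.48 in 4C11+. It was abundant in all lines and lowest in 4C without overlap, 2.38-fold below 4C11+ (largest of the 3 adjusted p = 0.0443 in limma). *Ppargc1a*, a coactivator of mitochondrial genes, was at −2.44, −3.44 and −3.44 in 4C against −0.70 to 5.92 in the others, at least 2.70-fold lower. *Phldb2*, a protein of the cell cortex near adhesions, was higher in 4C, at 7.18, 8.08 and 8.07 against 4.46 to 6.59 in the others.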
